A study of Mus musculus with 9 samples.

Results

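The organic anion and cation transporters described here are the mouse Slc22a and Slco genes, taken from the count table by symbol (Slc22a or Slco followed by a number). They number 40 of the 38720 genes in the table, 25 Slc22a and 15 Slco. The rule used names only and no measured value. Both families encode membrane carriers that move small organic molecules across the plasma membrane. In the RefSeq annotation 39 of the 40 are protein coding, and Slco6b1 is a lncRNA, a long RNA that encodes no protein. The Slc22 family holds the organic cation transporters, the carnitine transporters and the organic anion and urate transporters, and the Slco genes encode the organic anion transporting polypeptides, which carry bile acids, prostaglandins, steroid conjugates and thyroid hormones. They are best known from liver, kidney, gut and blood-brain barrier. In the thymus, medullary epithelial cells are known to transcribe many genes of such tissues at low level, under the control of Aire and Fezf2 among other factors.

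Polyadenylated RNA of sorted mouse thymic epithelial cells was counted in 20 libraries. Cortical cells (cTEC) were sorted as CD45-EpCAM+MHCII+Ly51+UEA1- and medullary cells (mTEC) as CD45-EpCAM+MHCII+Ly51-UEA1+. Foxn1 is the forkhead transcription factor on which thymic epithelial development depends. The deletion set has 2 groups of cTEC, both homozygous for beta5t-rtTA and for Foxn1 fl/fl and both taken 72 h after doxycycline. Its controls (NcT, 5 libraries) lack the tetO-Cre1Jaw/J transgene, and the deleted group (PcT, 5 libraries) is heterozygous for it, so that exons 7 and 8 of Foxn1 are removed where the beta5t promoter, active in cTEC and their precursors, drives the activator. The transgenic set is on the nude background (nu/nu) throughout, with FLAG-tagged Foxn1 coming from a BAC transgene that is homozygous (96) or heterozygous (42). It has 3 libraries each of homozygous and heterozygous cTEC (96cT, 42cT) and 2 each of homozygous and heterozygous mTEC (96mT, 42mT). The age of the mice is not given in the sources used here, and nothing says which libraries came from separate animals, so p-values measure only the spread between these libraries, which may be technical.

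Totals ran from 20719630 to 22372633 counts per library, so 1 count is worth about the same in all of them. Levels are given as CPM, a count scaled to a fixed number of counts in the raw total of its library. Foxn1 read 407, 515, 351, 416 and 579 CPM in the control and 362, 538, 361, 407 and 500.1 CPM in the deleted libraries, a count over the whole gene that checks neither the deletion of 2 exons nor the transgene. It read 1484, 1299 and 1311 CPM in homozygous and 1144, 1209.5 and 1144 CPM in heterozygous cTEC, and 307 and 329 against 488 and 502 CPM in the mTEC. The summed level of 8 cTEC markers was 4018 to 16024 CPM in control and 840 to 1487 CPM in deleted cTEC, 11384 to 12842 and 1148 to 1197 CPM in homozygous and heterozygous cTEC, and at most 641 CPM in mTEC. The 10 mTEC markers summed to 5881 to 7432 CPM in mTEC and at most 1756 CPM in cTEC. In these sorted cell pools, fewer cells of a type and less RNA per cell cannot be told apart.

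Since Foxn1 is reported to bind sites with the core GACGC, the promoters of the members were searched for these letters on both strands (GACGC or GCGTC, a window being counted once whichever form it held). The RefSeq promoter table (GRCm38.p6, 250 bases before to 50 after a start) had windows for 35 of the 40 members and none for Slc22a7, Slc22a21, Slco3a1 and Slco5a1, among others. The letters stood in a window of 8 of the 35 members (22.9%), Slc22a3, Slc22a5, Slc22a16, Slc22a23, Slco2b1, Slco4a1, Slco6b1 and Slco6d1, and in 29.6% of all 27025 genes with a window. By windows the shares were 20% of 40 and 27.2% of 32851. Shown are 4 stretches ahead of the outermost annotated start, read along the gene's own strand, with the core in capitals. They belong to members whose levels differ clearly between the groups below. The first is Slc22a23 (chr13:34345276-34345468, minus strand), counted most in homozygous cTEC. The second, Slc22a17 (chr14:54913133-54913382, minus strand), has no match and was higher in the heterozygotes of both compartments. Slc22a3 (chr17:12507705-12507954, minus strand) and Slco4a1 (chr2:180455995-180456225, plus strand) were counted almost only in mTEC. Counted back from the end of the printed stretch, the core begins at base 109 in Slc22a23, 79 in Slc22a3 and 190 in Slco4a1. A match is a description of these letters and shows no binding.
Slc22a23: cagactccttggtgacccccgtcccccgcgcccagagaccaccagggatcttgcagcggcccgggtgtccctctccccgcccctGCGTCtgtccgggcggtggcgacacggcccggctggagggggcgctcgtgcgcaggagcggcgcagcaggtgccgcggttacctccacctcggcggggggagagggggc
Slc22a17: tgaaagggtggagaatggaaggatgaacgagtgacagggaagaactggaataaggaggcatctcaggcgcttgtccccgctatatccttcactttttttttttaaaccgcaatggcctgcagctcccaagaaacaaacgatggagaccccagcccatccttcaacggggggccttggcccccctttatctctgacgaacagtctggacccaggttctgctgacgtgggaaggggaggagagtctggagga
Slc22a3: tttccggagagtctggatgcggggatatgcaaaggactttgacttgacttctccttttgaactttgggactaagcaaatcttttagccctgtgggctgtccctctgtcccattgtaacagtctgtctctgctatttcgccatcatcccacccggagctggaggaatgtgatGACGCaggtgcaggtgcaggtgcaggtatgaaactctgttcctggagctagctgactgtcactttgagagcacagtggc
Slco4a1: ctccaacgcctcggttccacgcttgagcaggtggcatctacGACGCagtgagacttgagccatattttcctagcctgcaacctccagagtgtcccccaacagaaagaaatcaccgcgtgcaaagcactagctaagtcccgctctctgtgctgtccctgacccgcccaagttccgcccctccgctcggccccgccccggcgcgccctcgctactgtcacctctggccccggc

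Most members were counted most in mTEC. Of the 39 members with any count, 26 (66.7%) had their highest group mean in homozygous mTEC and 6 (15.4%) in heterozygous mTEC, and over all 29693 genes with counts these shares were 40.2% and 19.1%. In homozygous mTEC every library counted 39 of the 40 members, against 18 in homozygous cTEC, 18 in heterozygous cTEC, 27 in heterozygous mTEC and 16 in each group of the deletion set. A mean of at least 1 CPM was reached by 21 members in homozygous mTEC, 16 in heterozygous mTEC, 11 in either cTEC group of the transgenic set and 12 in either group of the deletion set. Neither count was taken over all genes. Genes of any kind with counts numbered 25387 and 25434 in the homozygous mTEC libraries and 23759 and 23799 in the heterozygous ones. In cTEC they numbered 19818 to 20251 per library of the transgenic set and 20260 to 22096 in the deletion set. A count in every library asks for 2 libraries in each mTEC group, 3 in each cTEC group of the transgenic set and 5 in each deletion group. Slc22a16, a carnitine transporter known from testis, had no count in any library. In the transgenic set the filter on low counts, about 0.463 CPM in at least 2 libraries, left 27 members. The deletion set, with groups of 5 libraries, was filtered apart and needed its limit in at least 5 libraries, which left 13 members. Of the 27, 13 passed through mTEC libraries alone, so that they had to be higher there, and 14 reached the limit in both compartments. Among the 13 were Slc22a2, Slc22a3, Slc22a8, Slc22a14, Slc22a20, Slc22a22, Slc22a26, Slc22a29, Slco1a6, Slco1b2, Slco1c1 and Slco4a1.

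The deletion comparison asked how deleted cTEC differ from control cTEC 72 h after doxycycline. In the edgeR fit a single member changed, Slc22a7, which was lower in deleted cTEC. Of the 13 members tested, 1 was lower and 0 were higher at an edgeR adjusted p of 0.05, and over all 15224 genes tested 1.69% were lower and 0.282% higher. At an unadjusted p of 0.05, 4 of the 13 passed. DESeq2 called 2 lower and 1 higher, and limma-voom called none lower, with Slc22a7 at an adjusted p of 0.0516. Leaving out control library 2 or 4 brought the lower calls to 2. The median log2 fold change of the tested members was 0.088, beside 0.012 over all genes. Beside these values, the 10 fibroblast markers summed to 762 to 1720 CPM in control and 2002 to 2771 CPM in deleted libraries, and the part of such cells in the result was not tested.

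Halving the transgene, from homozygous to heterozygous, asked how the members follow the number of its copies. The Foxn1 count itself was lower in heterozygous cTEC (log2 fold change -0.36 ± 0.06, edgeR adjusted p = 0.000445). In heterozygous mTEC it was higher (0.66 ± 0.08, adjusted p = 1.68e-05), opposite to the number of copies. In cTEC, 4 of 27 members were higher (Slco1a5, Slc22a17, Slc22a21, Slc22a8) and 8 were lower (Slc22a7, Slc22a4, Slc22a18, Slc22a23, Slco2b1, Slco4a1, Slco4c1, Slco5a1). Over all 19222 genes 20.9% were higher and 21.9% lower, beside 14.8% and 29.6% of the tested members. The medians were -0.006 for members and 0 for all genes. Without homozygous library 3 the lower calls were 5, and without heterozygous library 3, homozygous library 1 or 3, or heterozygous mTEC library 1 or 2 the higher calls were 2. Thymocyte markers summed to 72.3 to 115 CPM in homozygous and 12.4 to 20.3 CPM in heterozygous cTEC, and fibroblast markers to 404 to 465 and 849.6 to 1206 CPM. The 10 mTEC markers summed to 208 to 237 CPM in homozygous and 757 to 942 CPM in heterozygous cTEC, with 5 of them higher and 4 lower. The part of other cells in these differences was not tested.

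In mTEC, 17 of 27 members were lower in heterozygotes and only Slc22a17 was higher, where 30.8% of all 19222 genes were lower and 28.9% higher. Of the 17, 6 (Slc22a14, Slc22a20, Slc22a22, Slc22a26, Slco1b2 and Slco1c1) passed the filter through homozygous mTEC alone, so that they had to be lower in heterozygous mTEC. Of the other 21 members, 11 were lower and 1 was higher. The median of the members was -0.47 and that of all genes 0.01. Among the 14 members that also reached the limit in cTEC, 7 were lower and 1 was higher, with a median of -0.40. Shares of all genes under the limits that define these 21 and 14 members were not taken. Leaving out heterozygous cTEC library 2 or heterozygous mTEC library 2 added a second higher call, Slco4c1 in the first case (adjusted p = 0.0452) and Slc22a2 in the second (adjusted p = 0.0499). In the second case 1 heterozygous mTEC library is left, whose spread is taken from the other groups. Levels of markers for other cell types differed as well. Macrophage and dendritic cell markers summed to 595 to 701 CPM in homozygous and 117 to 121 CPM in heterozygous mTEC, hepatocyte markers to 133 to 146 and 18.2 to 20.9 CPM, and kidney proximal tubule markers to 79.4 to 87.3 and 21.9 to 30.6 CPM. No marker of these 3 lists was at 0 in all libraries of either mTEC group. Their part in the result was not tested.

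Between compartments, most of the tested members were higher in mTEC, a count that includes the 13 that passed the filter there alone. In homozygotes 19 of 27 were higher and 5 lower, where 43.2% of all genes were higher and 39.4% lower. In heterozygotes 16 were higher and 4 lower, where 40.4% of all genes were higher and 31.6% lower. Of the 16, Slc22a20, Slc22a26 and Slco1b2 had 3, 4 and 6 counts in heterozygous mTEC and none in heterozygous cTEC. The call of Slc22a20 (edgeR adjusted p = 0.0404) was lost with DESeq2 (adjusted p = 0.0989) and without the filter (edgeR adjusted p = 0.0588), among other fits. Among the 14 that reached the limit in both compartments, 6 were higher and 5 lower in homozygotes, with a median of 0.01, and 6 were higher and 4 lower in heterozygotes, with a median of 0.08. The share of all genes under this limit was not taken. The macrophage markers summed to 7.32 to 11.7 CPM in cTEC of the transgenic set, the endothelial ones to 4.50 to 8.27 CPM there and to 127 to 162 CPM in mTEC.

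Whether the dose effect differed between compartments was tested as an interaction, the log2 dose effect in mTEC minus that in cTEC. It was above 0 for 5 of 27 members (25.2% of all genes) and below 0 for 6 (17.2%). The members concerned were Slc22a4, Slc22a7, Slc22a17, Slc22a23 and Slco4c1 above 0, and Slc22a5, Slc22a14, Slc22a21, Slc22a22, Slco1a5 and Slco2a1 below it. Their values stand with each member in the following account, which goes by role.

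**Figure D1:**
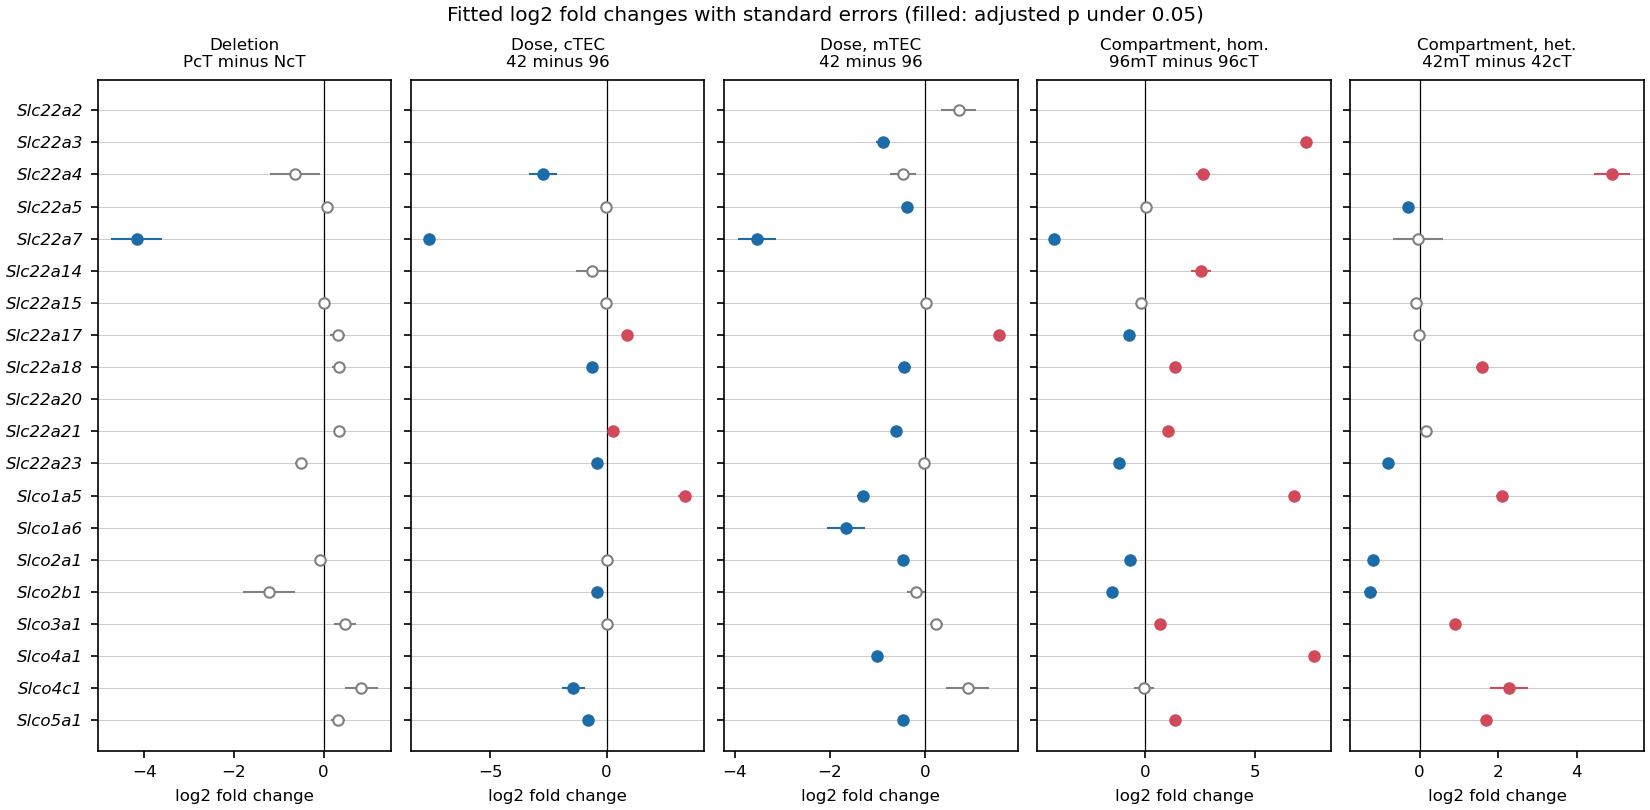
Fitted log2 fold changes (horizontal axes, with standard errors as bars) of 20 members in 5 comparisons. Filled points passed an adjusted p of 0.05 (red higher, blue lower) and open points did not, and values where either group had 3 or fewer counts in all its libraries are left out. The point for Slc22a7 lies at -4.17 in the deletion comparison and at -7.61 for the dose in cTEC.

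Among the organic anion and urate transporters, Slc22a7 stood out. It encodes OAT2, an uptake carrier known from liver and kidney that takes organic anions and guanine nucleotides. The gene lies at chr17:46432185-46438477 (GRCm38.p6), with the lncRNA Gm36541 overlapping it. Control cTEC held 24.5, 13.1, 41.4, 17.3 and 66.2 CPM, and deleted cTEC 0.738, 1.96, 3.4, 0.919 and 2.32 CPM. The groups did not overlap, the lowest control library lying above every deleted one, and the controls themselves spread widely. The log2 fold change was -4.17 ± 0.57 (SE), with an edgeR adjusted p of 0.00934.

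The same gene followed the transgene dose. Homozygous cTEC held 26.8, 23.8 and 25.9 CPM and heterozygous cTEC 0.228, 0.0927 and 0.0918 CPM, that is 5, 2 and 2 counts. The 3 heterozygous libraries are near the lowest level that can be counted, and the log2 fold change was -7.61 ± 0.22 (adjusted p = 3.79e-11). Homozygous mTEC held 2.04 and 1.44 CPM and heterozygous mTEC 0.141 and 0.142 CPM, 3 counts each, a change of -3.54 ± 0.40 (adjusted p = 1.1e-05). The dose effect was the smaller one in mTEC, with an interaction of 4.07 ± 0.81 (adjusted p = 0.00126). Both heterozygous groups were near the lowest level that can be counted, and the level in homozygous mTEC was below that in homozygous cTEC. The part of these levels in the interaction was not tested. In homozygotes Slc22a7 was lower in mTEC by 4.11 ± 0.17 on the log2 scale (adjusted p = 6.58e-11), and in heterozygotes, at so few counts, the difference was -0.05 ± 0.64 (adjusted p = 0.957).

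Crip3, which encodes a cysteine-rich LIM-domain protein, ends 404 bases from Slc22a7 (chr17:46428195-46431780) and was chosen for comparison after its values were seen. Its counts were far higher in every library. Control cTEC held 448, 187, 505, 309 and 934 CPM and deleted cTEC 25.9, 49.3, 44.7, 18.4 and 36.1 CPM, with a log2 fold change of -3.81 ± 0.46 (adjusted p = 0.00876). For the dose it was -5.44 ± 0.10 in cTEC (adjusted p = 2.47e-12) and -2.97 ± 0.14 in mTEC (adjusted p = 7.44e-09). Slc22a7 counts were 5.47% to 8.19% of Crip3 counts in control and 2.85% to 7.60% in deleted cTEC, and 2.79% to 3.11% in homozygous and 0.417% to 1.04% in heterozygous cTEC. In mTEC they were 3.42% to 4.05% in homozygotes and 2.27% to 2.63% in heterozygotes. The share was thus lower in heterozygotes of both compartments while it overlapped between control and deleted cTEC. In heterozygotes it rests on 2 to 5 Slc22a7 counts per cTEC library and 3 per mTEC library. Whether reads from Crip3 transcripts enter the Slc22a7 count was not tested, and the strand setting is not given in the sources used here.

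**Figure D2:**
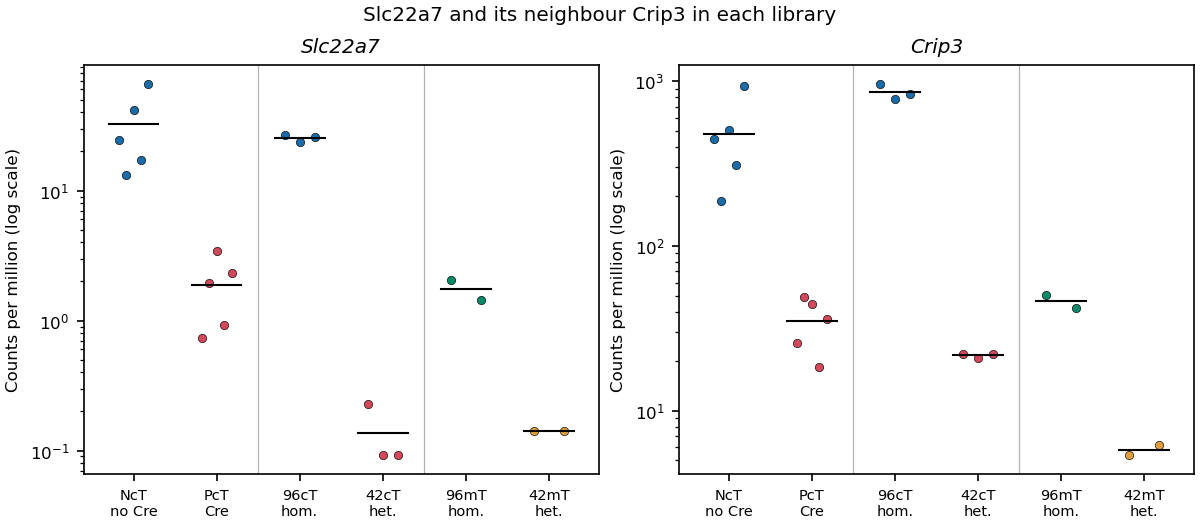
CPM on a log axis of Slc22a7 (left) and Crip3 (right) in each library, by group, with bars at the group means. Both genes are lower in deleted than in control cTEC and lower in heterozygotes than in homozygotes, without overlap.

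The other organic anion transporters were counted at low level and mainly in mTEC. Slc22a20, the olfactory transporter OAT6, had 27 and 31 counts in homozygous mTEC, 2 and 1 in heterozygous mTEC and none in the cTEC of the transgenic set. It was thus 19.0-fold lower in heterozygous mTEC (exact 95% interval 6.18 to 94.7, covering counting error only), and at least 28.9-fold higher in homozygous mTEC than in cTEC, taking 3 counts over the group as the limit. To be tested, it had to be lower in heterozygous mTEC and in cTEC than in homozygous mTEC. The same holds for the next pair. Slc22a22, a prostaglandin-specific organic anion carrier, had 30 counts in homozygous and 1 in heterozygous mTEC, a ratio of 29.5 (4.90 to 1202), and Slc22a26 had 29 and 4.

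Slc22a8, the kidney transporter OAT3, and Slc22a29 did not follow that pattern. Slc22a8 had 22 counts in homozygous and 26 in heterozygous mTEC. It had none in homozygous cTEC and 4, 0 and 3 in the heterozygous cTEC libraries, so these groups overlap. By the sum of 7 counts it was at least 2.31-fold higher in heterozygous cTEC (edgeR adjusted p = 0.0488). Slc22a29 had 32 and 35 counts in mTEC and was higher there than in cTEC at both doses (log2 fold changes 2.93 and 1.93). The filter, passed through mTEC alone, fixed that direction. The remaining 7 of the 13 genes in this group, Slc22a6, a12, a13, a19, a27, a28 and a30, did not pass the filter. The highest of them, Slc22a27, had 27 counts in homozygous mTEC (5 and 22 by library), 1 in heterozygous mTEC and 1 in all 16 cTEC libraries. Slc22a26 to Slc22a30 form a cluster of similar genes on chromosome 19, where reads could be shared between copies.

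The organic cation transporters Slc22a2 and Slc22a3 had 0 to 12 counts per cTEC library and more in every mTEC library. Both passed the filter through mTEC libraries alone, which fixed the direction of their compartment differences. Slc22a3 (OCT3, a carrier of monoamines outside neurons) held 18.1 and 19.4 CPM in homozygous and 9.32 and 10.7 CPM in heterozygous mTEC. It was lower by 0.88 ± 0.15 on the log2 scale in heterozygotes (adjusted p = 0.000344). Homozygous cTEC held 0.0935, 0.0453 and 0.143 CPM, a compartment difference of 7.33 ± 0.26 (adjusted p = 1.58e-11), and heterozygous cTEC had 1 count in 3 libraries, a ratio of 654 (117 to 25881). Slc22a2 (OCT2, of the kidney tubule) had 26 and 34 counts in homozygous and 60 and 35 in heterozygous mTEC, so that the heterozygous libraries were the higher ones, and the dose difference did not pass (0.71 ± 0.37, adjusted p = 0.116). It had no count in homozygous cTEC, which puts homozygous mTEC at least 29.9-fold higher.

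**Figure D3:**
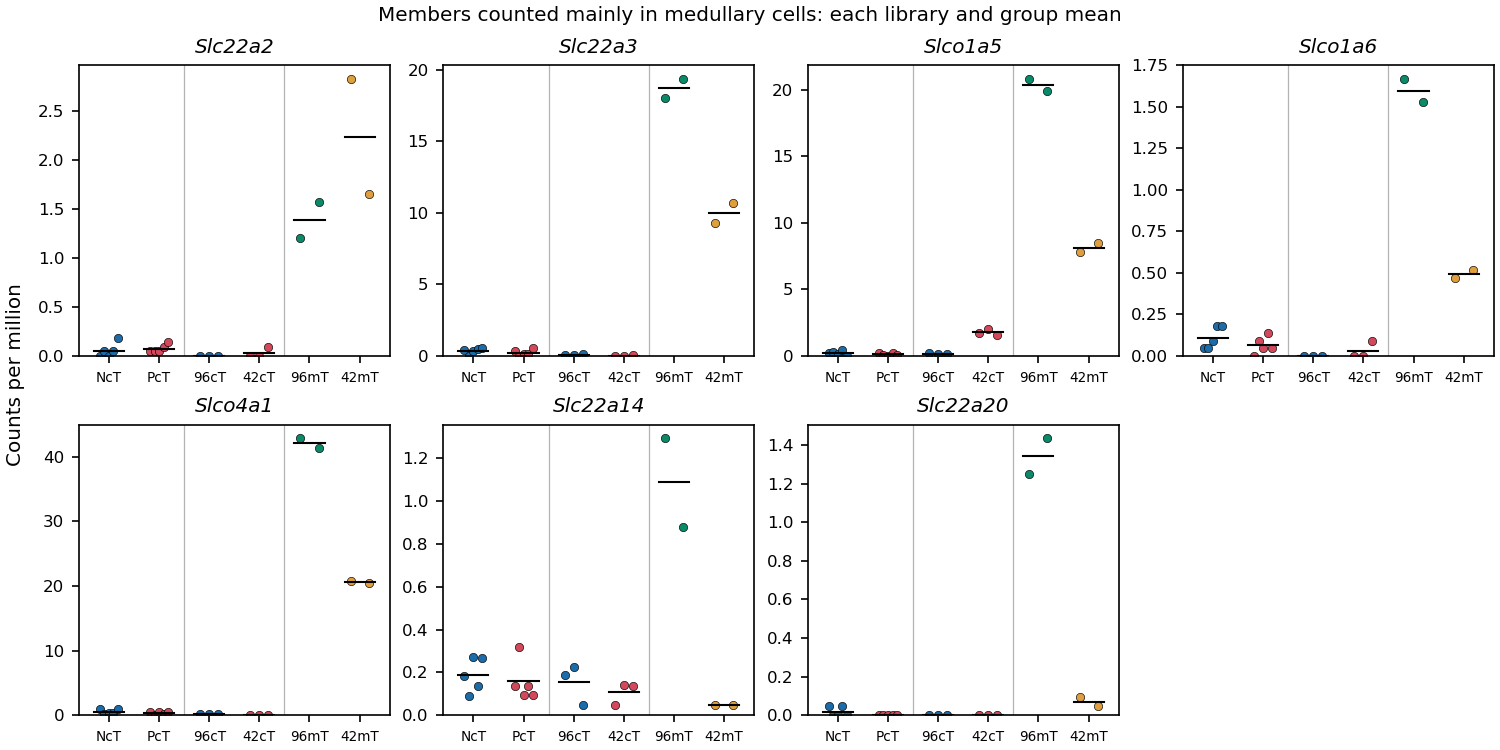
CPM (vertical axes, from 0) of 7 members in each library, by group, with bars at the group means. The homozygous mTEC libraries are the highest for 6 of the 7, with Slco4a1 at 42.9 and 41.4 CPM, and for Slc22a2 the heterozygous mTEC libraries are the highest.

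Of the carnitine and zwitterion transporters, Slc22a5 (OCTN2, the sodium-coupled carnitine carrier) was counted evenly. It held 45.9, 39.3, 37.9, 42.9 and 33.9 CPM in control and 47.6, 41.3, 42.7, 43.6 and 40.3 CPM in deleted cTEC (log2 fold change 0.09 ± 0.09, adjusted p = 0.615). In cTEC the dose groups overlapped, at 30.3, 33.2 and 37.0 against 37.5, 34.1 and 38.2 CPM (-0.01 ± 0.08, adjusted p = 0.992). In mTEC it fell from 42.9 and 39.8 to 31.7 and 31.4 CPM (-0.37 ± 0.10, adjusted p = 0.00601), a call lost without homozygous mTEC library 1 (adjusted p = 0.0612). The interaction of -0.36 ± 0.13 (adjusted p = 0.0351) was lost in 7 of 10 fits that left out a library, and the lower level in heterozygous mTEC than cTEC (-0.30 ± 0.09, adjusted p = 0.00913) in 3.

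Slc22a21, its close relative and a carnitine carrier in the mouse, moved in opposite directions in the compartments. Homozygous cTEC held 6.31, 6.71 and 7.13 CPM and heterozygous cTEC 8.09, 8.94 and 9.82 CPM, a rise of 0.28 ± 0.11 (adjusted p = 0.0491) that was lost in 7 of 10 fits without a library. Homozygous mTEC held 16.1 and 16.7 CPM and heterozygous mTEC 10.6 and 10.7 CPM, a fall by 0.60 ± 0.12 (adjusted p = 0.000873). The interaction was -0.88 ± 0.16 (adjusted p = 0.000696). The deletion groups did not overlap, with 6.81, 6.97, 7.53, 7.93 and 6.17 CPM in control and 8.49, 9.72, 9.14, 8.86 and 9.41 CPM in deleted cTEC, yet the difference did not pass over all genes (0.34 ± 0.10, adjusted p = 0.115; DESeq2 adjusted p = 0.019).

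Slc22a4 (OCTN1, the ergothioneine carrier) was low in cTEC and higher in mTEC. Homozygous cTEC had 5, 19 and 20 counts and heterozygous cTEC 4, 1 and 2, a change of -2.74 ± 0.59 (adjusted p = 0.0021). Homozygous mTEC had 113 and 103 counts and heterozygous mTEC 79 and 73, which did not pass (-0.46 ± 0.28, adjusted p = 0.178), and the interaction was 2.28 ± 0.68 (adjusted p = 0.0152). The compartment difference was 2.62 ± 0.32 in homozygotes (adjusted p = 4e-06) and 4.90 ± 0.46 in heterozygotes (adjusted p = 5.53e-07). Slc22a4, Slc22a21 and Slc22a5 lie close together on chromosome 11, and the annotated gene Gm30927 overlaps both Slc22a4 and Slc22a21.

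Of the less studied Slc22 members, Slc22a17 (the lipocalin-2 receptor, which binds siderophore-carrying lipocalin) was the one member higher in the heterozygotes of both compartments. Homozygous cTEC held 75.9, 64.4 and 62.4 CPM and heterozygous cTEC 133, 139 and 132 CPM (0.86 ± 0.09, adjusted p = 3.84e-06). Homozygous mTEC held 42.5 and 55.1 CPM and heterozygous mTEC 139 and 144 CPM (1.56 ± 0.11, adjusted p = 2.38e-07). The rise was the larger one in mTEC, with an interaction of 0.70 ± 0.14 (adjusted p = 0.00134). In homozygotes it was lower in mTEC than cTEC by 0.71 ± 0.10 (adjusted p = 2.17e-05), and in heterozygotes the difference was -0.01 ± 0.10 (adjusted p = 0.918). The deletion groups overlapped, with 52.4, 77.9, 44.1, 85.3 and 40.7 CPM in control and 71.2, 76.8, 76.6, 76.9 and 73.9 CPM in deleted cTEC (0.31 ± 0.17, adjusted p = 0.347), control libraries 2 and 4 lying above all deleted ones.

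Slc22a23, an orphan transporter known from brain, was highest in homozygous cTEC. These libraries held 201, 193 and 203 CPM, heterozygous cTEC 159, 174 and 160.2 CPM (-0.41 ± 0.05, adjusted p = 1.99e-05), homozygous mTEC 101 and 106 CPM and heterozygous mTEC 99.8 and 101 CPM (-0.02 ± 0.06, adjusted p = 0.835). The dose effect thus differed between compartments (interaction 0.39 ± 0.08, adjusted p = 0.00159). Against cTEC of the same dose it was lower in mTEC by 1.19 ± 0.06 in homozygotes (adjusted p = 3.86e-10) and by 0.80 ± 0.06 in heterozygotes (adjusted p = 3.84e-08). Control cTEC held 157, 129, 135, 125 and 192 CPM and deleted cTEC 104, 107, 116, 104 and 97.6 CPM. These do not overlap, but the difference did not pass over all genes (-0.51 ± 0.13, adjusted p = 0.0793). It passed with DESeq2 (adjusted p = 0.0123), without control library 2 (adjusted p = 0.034) and without control library 4 (adjusted p = 0.0399).

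Slc22a18, an imprinted gene whose product is thought to carry organic cations, held 7.06, 5.76 and 7.56 CPM in homozygous and 4.8, 4.22 and 5.42 CPM in heterozygous cTEC (-0.63 ± 0.13, adjusted p = 0.00195). In mTEC it held 21.9 and 19.9 against 14.8 and 15.8 CPM, a fall by 0.43 ± 0.14 (adjusted p = 0.0155) that was lost without homozygous library 1 (adjusted p = 0.114) or heterozygous library 1 or 2 (0.0946 and 0.0516). It was higher in mTEC by 1.38 ± 0.13 in homozygotes and 1.58 ± 0.14 in heterozygotes (adjusted p = 3.06e-07 and 2.3e-07). Deletion changed it by 0.34 ± 0.15, which did not pass (adjusted p = 0.263).

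Slc22a15 was the one tested member that passed in none of the 6 tests. Its level was 28.9 to 34.4 CPM in control, 31.5 to 34.4 CPM in deleted, 33.0 to 37.9 CPM in homozygous and 35.1 to 39.9 CPM in heterozygous cTEC, and 36.4 to 37.1 CPM in mTEC, with log2 differences from -0.16 ± 0.08 to 0.07 ± 0.11. Slc22a14, a riboflavin carrier of sperm, had 28 and 19 counts in homozygous mTEC and 1 in each heterozygous mTEC library, a ratio of 23.1 (exact 95% interval 6.04 to 196) whose direction the filter fixed. All cTEC libraries had 1 to 7 counts of it.

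Among the Slco genes, the Slco1 subfamily carries bile acids, steroid conjugates and thyroid hormones. Slco1a5 (chr6:142234227-142322981) rose with fewer transgene copies in cTEC and fell in mTEC. Homozygous cTEC held 0.187, 0.136 and 0.143 CPM and heterozygous cTEC 1.74, 2.04 and 1.61 CPM, a change of 3.35 ± 0.27 (adjusted p = 4.57e-07). Homozygous mTEC held 20.8 and 19.9 CPM and heterozygous mTEC 7.82 and 8.45 CPM, a change of -1.30 ± 0.13 (adjusted p = 3.96e-06). The interaction was -4.65 ± 0.30 (adjusted p = 1.57e-07). Its level in mTEC exceeded that in cTEC by 6.74 ± 0.20 in homozygotes and by 2.09 ± 0.15 in heterozygotes (adjusted p = 2.54e-12 and 2.37e-08).

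The span of Slco1a5 holds Iapp, the gene of islet amyloid polypeptide and the only protein-coding gene that overlaps a member. Iapp had 2326 and 1938 counts in homozygous mTEC and 345 and 360 in heterozygous mTEC, so it too fell there. In cTEC it had 17 counts in 3 homozygous and 9 in 3 heterozygous libraries, where Slco1a5 had 10 and 117, so that the rise of Slco1a5 in cTEC was not accompanied by one of Iapp. In all, 19 of the 40 members overlap another annotated gene.

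The other Slco1 members were near the counting limit outside homozygous mTEC. Slco1a6, a renal family member, had 36 and 33 counts in homozygous mTEC, 10 and 11 in heterozygous mTEC (-1.65 ± 0.39, adjusted p = 0.00397, but 0.0509 with DESeq2), none in homozygous and 2 counts in heterozygous cTEC. It was at least 34.3-fold higher in homozygous mTEC than cTEC, a direction fixed because it passed the filter through mTEC alone. Slco1b2, the hepatic bile acid carrier, had 27 counts in homozygous mTEC, 6 in heterozygous mTEC and none in any cTEC library. Slco1c1, the thyroxine carrier of the blood-brain barrier, had 35, 1 and, over all 16 cTEC libraries, 1 count, with a ratio of 34.4 between the mTEC groups (5.78 to 1396). For both genes the filter fixed this direction. Slco1a1 and Slco1a4 were not tested and had 6 and 23 counts in homozygous mTEC and 2 and 5 in heterozygous mTEC.

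Slco2a1 encodes the prostaglandin transporter, which clears prostaglandins from outside the cell. It held 405, 292, 293, 301 and 364 CPM in control and 337, 283, 330.1, 324 and 323 CPM in deleted cTEC, which overlap (-0.08 ± 0.12, adjusted p = 0.762). The cTEC dose groups overlapped too, at 293, 278 and 293 against 344, 290.5 and 338 CPM (0.04 ± 0.07, adjusted p = 0.738). In mTEC it was lower, 203 and 223 CPM in homozygotes and 144 and 159.8 CPM in heterozygotes (dose -0.46 ± 0.09, adjusted p = 0.000834). The compartment difference was -0.68 ± 0.08 in homozygotes and -1.18 ± 0.09 in heterozygotes (adjusted p = 4.84e-06 and 3.77e-08), and the interaction -0.50 ± 0.12 (adjusted p = 0.00404).

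Slco2b1, a carrier of steroid sulfates, was also lower in mTEC. It held 26.8, 23.7 and 29.0 CPM in homozygous cTEC and 11.2 and 11.1 CPM in homozygous mTEC (-1.50 ± 0.16, adjusted p = 1.16e-06), and 23.2, 25.6 and 16.5 against 9.61 and 9.68 CPM in heterozygotes (-1.26 ± 0.16, adjusted p = 1.25e-05). The dose effect in cTEC, -0.42 ± 0.13 (adjusted p = 0.0208), rested on overlapping groups and was -0.23 without heterozygous library 3 (adjusted p = 0.0716). It was also lost without homozygous library 1 or 3 (0.0578 and 0.092). The deletion groups were spread widely, with 109, 25.8, 58.0, 18.1 and 117 CPM in control and 45.5, 10.7, 41.6, 15.2 and 31.7 CPM in deleted cTEC (-1.22 ± 0.58, adjusted p = 0.277). Libraries 2 and 4 were the lowest of both groups.

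Slco3a1, which carries prostaglandins and thyroxine, held 16.9, 22.7 and 20.5 CPM in homozygous and 21.5, 25.2 and 20.6 CPM in heterozygous cTEC, 34.9 and 40.8 CPM in homozygous and 41.5 and 46.9 CPM in heterozygous mTEC. It was higher in mTEC by 0.67 ± 0.12 in homozygotes (adjusted p = 0.000176) and 0.89 ± 0.12 in heterozygotes (adjusted p = 1.8e-05), and neither dose difference passed (adjusted p = 0.899 and 0.12). Control cTEC held 22.9, 22.9, 14.2, 26.9 and 11.8 CPM and deleted cTEC 36.1, 18.5, 31.8, 22.1 and 30.2 CPM, which did not pass (0.48 ± 0.24, adjusted p = 0.306).

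Slco4a1, a carrier of thyroid hormone found in many tissues, was the member with the lowest adjusted p between compartments. It passed the filter through mTEC libraries alone, so that the direction of this difference was fixed. It held 42.9 and 41.4 CPM in homozygous mTEC and 0.234, 0.136 and 0.143 CPM in homozygous cTEC, a log2 difference of 7.66 ± 0.16 (adjusted p = 1.41e-13). Heterozygous mTEC held 20.8 and 20.5 CPM (2.04-fold lower by CPM, adjusted p = 3.41e-06), and each heterozygous cTEC library had 1 count, a ratio of 450 between the heterozygous compartments (exact 95% interval 153 to 2185). The fall with dose in cTEC passed narrowly (adjusted p = 0.0403), from 11 counts to 3, a ratio of 3.71 with an interval of 0.98 to 20.7, and was lost in 5 of 10 fits without a library.

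Slco4c1, a carrier of digoxin and thyroid hormone in the kidney, was lower in heterozygous cTEC (12, 32 and 17 against 6, 16 and 3 counts; -1.42 ± 0.50, adjusted p = 0.0357), in overlapping groups, and the call was lost in 6 of 10 fits without a library. Without heterozygous library 2 it was -2.29. In mTEC it had 22 and 25 counts in homozygotes and 51 and 34 in heterozygotes (0.90 ± 0.45, adjusted p = 0.101), with an interaction of 2.32 ± 0.68 (adjusted p = 0.0138) that was lost in 3 of 10 such fits. In heterozygotes mTEC exceeded cTEC by 2.28 ± 0.48 (adjusted p = 0.000833). Deleted cTEC had 76, 32, 87, 49 and 50 counts and control cTEC 29, 41, 52, 32 and 14, which did not pass (0.84 ± 0.37, adjusted p = 0.244).

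Slco5a1, an orphan of the family, was lower in heterozygotes of both compartments. It held 38.7, 31.2 and 36.5 CPM in homozygous and 21.7, 25.0 and 19.6 CPM in heterozygous cTEC (-0.82 ± 0.09, adjusted p = 1.2e-05), and 102 and 112 against 74.3 and 78.2 CPM in mTEC (-0.47 ± 0.10, adjusted p = 0.00186). It was higher in mTEC by 1.35 ± 0.10 and 1.70 ± 0.10 in the homozygous and heterozygous comparison (adjusted p = 1.66e-08 and 3.96e-09). In the deletion set it held 33.7 to 58.0 CPM in control and 44.8 to 62.9 CPM in deleted cTEC (0.32 ± 0.15, adjusted p = 0.281). The 3 Slco6 genes, known from testis, had 5 to 11 counts each in homozygous mTEC, none in heterozygous mTEC and at most 2 in any cTEC group.

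**Figure D4:**
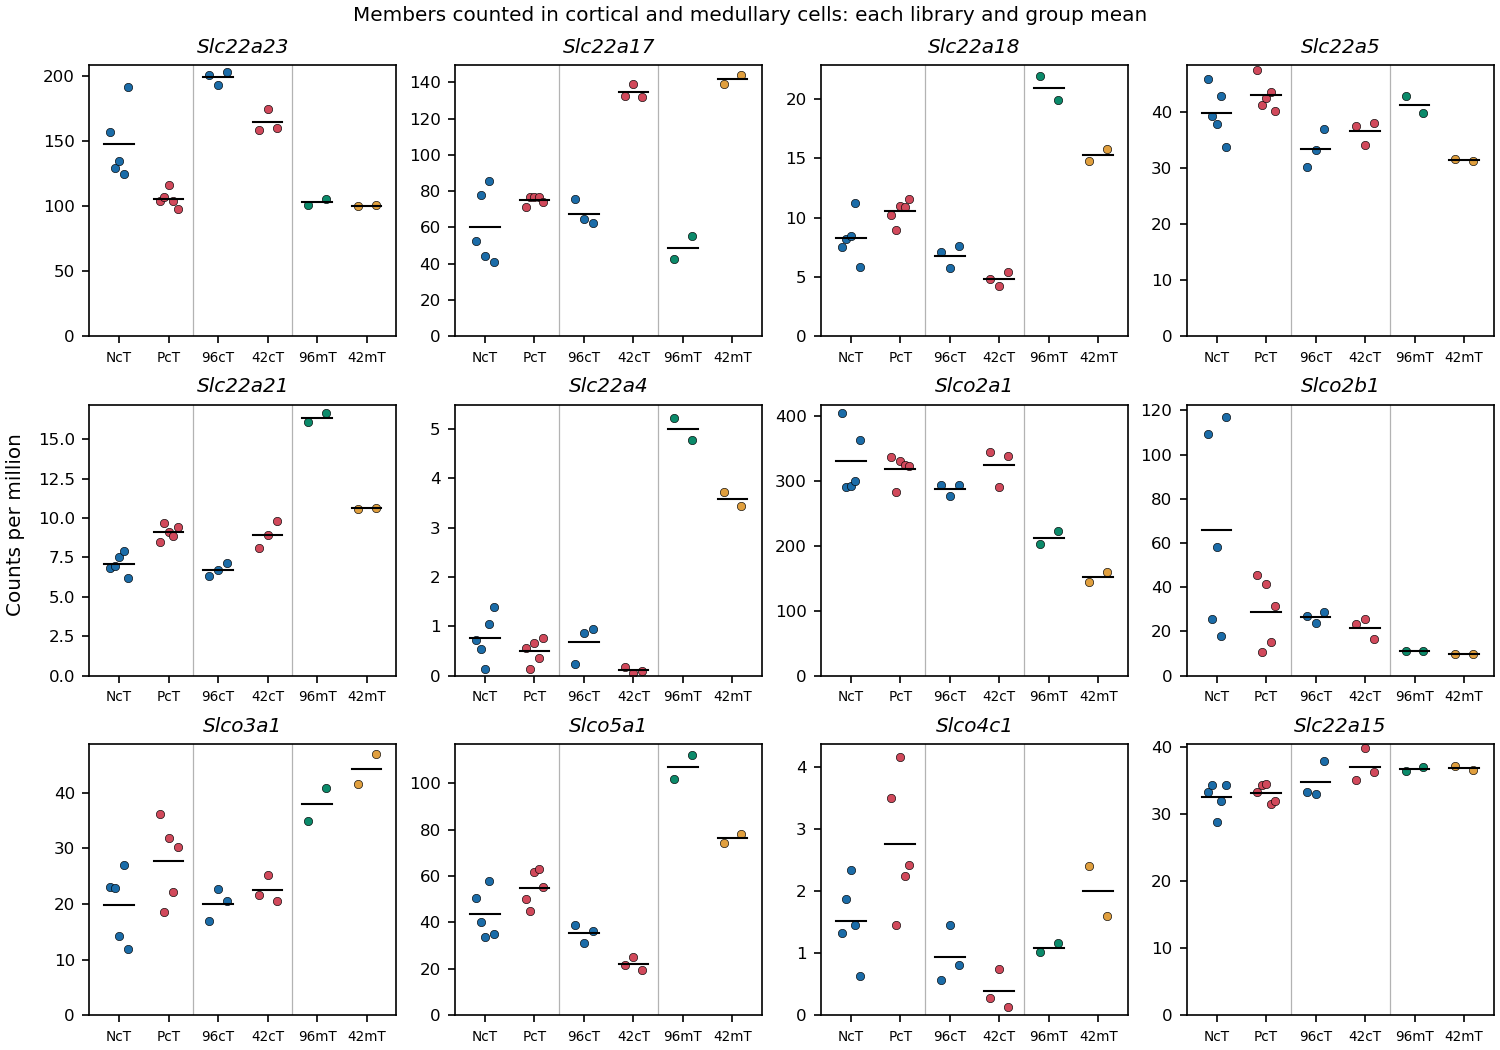
CPM (vertical axes, from 0) of 12 members in each library, by group, with bars at the group means. Slc22a23 and Slco2b1 are higher in cTEC of the transgenic set than in its mTEC, Slc22a18, Slco3a1 and Slco5a1 are lower, and Slc22a15 stays between 28.9 and 39.9 CPM in all 20 libraries.

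Genes that work with these carriers were read from companion lists. The counts of each list stand beside the shares of all genes given above, 0.282% higher and 1.69% lower for the deletion, 20.9% and 21.9% for the dose in cTEC, 28.9% and 30.8% for the dose in mTEC, and 43.2% and 39.4% between homozygous compartments. Of 16 efflux pumps and exchangers, which move organic solutes out of cells, 12 were tested in the deletion comparison and none passed. In the dose comparison 4 were higher and 3 lower in cTEC, and 3 and 7 in mTEC. Abcb4, the phospholipid flippase of bile, was higher in heterozygotes of both compartments (1.56, adjusted p = 0.000643 in cTEC and 2.13, adjusted p = 6.16e-05 in mTEC), and Abcg2 in cTEC (0.43, adjusted p = 0.00271). Abcc2 and Slc51a, exporters of conjugates and bile acids, were lower in heterozygous mTEC (-2.53 and -2.31, adjusted p = 3.16e-06 for both), and Slc47a2 and Abcc4 in heterozygous cTEC (-0.96 and -0.41). Between homozygous compartments 9 of 16 were higher in mTEC and 5 lower, with Abcc3 at 4.87 (adjusted p = 1.05e-11) and Slc47a1 at -3.08 (adjusted p = 1.29e-11).

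Of 28 other uptake carriers for organic solutes, only Slc46a2 passed in the deletion comparison, among 18 tested. Slc46a2, a thymic stromal transporter, was lower by 2.19 in deleted cTEC (adjusted p = 0.00934). It was also lower in heterozygous cTEC (-0.63, adjusted p = 1.2e-05) and higher in heterozygous mTEC (0.60, adjusted p = 0.000107). In all, 8 of 26 were higher and 6 lower in heterozygous cTEC, 4 and 11 in heterozygous mTEC, and 14 and 10 in homozygous mTEC against cTEC. Slc10a5, a relative of the bile acid carriers, rose in heterozygous cTEC (3.02, adjusted p = 1.01e-05) and fell in heterozygous mTEC (-1.11, adjusted p = 0.000212), and Slc15a3, a peptide and histidine carrier, was 7.82 higher on the log2 scale in homozygous mTEC than cTEC (adjusted p = 2.31e-13).

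For the carnitine carriers, the list of carnitine synthesis and acyltransferases had 8 tested genes. None passed in the deletion comparison, 2 were higher and 3 lower in heterozygous cTEC, 2 and 2 in heterozygous mTEC, and 2 and 3 in homozygous mTEC against cTEC. Bbox1, the last enzyme of carnitine synthesis, was higher in heterozygous cTEC (1.70, adjusted p = 0.00911), lower in heterozygous mTEC (-1.48, adjusted p = 1.88e-05) and higher in homozygous mTEC than cTEC (6.66, adjusted p = 5.5e-11). Cpt1a, which loads fatty acids onto carnitine, was lower in heterozygous cTEC (-0.44, adjusted p = 7.04e-05), higher in heterozygous mTEC (0.45, adjusted p = 0.000299) and lower in homozygous mTEC than cTEC (-2.62, adjusted p = 2.34e-12).

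Beside the prostaglandin carriers, 17 genes of prostaglandin synthesis, receptors and breakdown were read. In the deletion comparison Ptger4, a prostaglandin E receptor, was higher (1.12, adjusted p = 0.0354) and the other 12 tested did not pass. In heterozygous cTEC 5 of 16 were higher and 3 lower, among them Ptger4 again (1.31, adjusted p = 1.1e-07) and Ptges (1.49, adjusted p = 3.37e-06), and Hpgd, the main enzyme of prostaglandin breakdown, was lower (-0.30, adjusted p = 0.00433). In heterozygous mTEC 9 of 16 were lower and none higher, with Ptgds at -3.22 (adjusted p = 3.72e-08) and Ptgs2 at -2.97 (adjusted p = 1.54e-07). Homozygous mTEC exceeded cTEC in 13 of 16 and was lower in 2, with Ptges at 4.96 (adjusted p = 5.62e-13) and Hpgd at -1.48 (adjusted p = 2.1e-09). The median log2 fold change of the 16 in heterozygous mTEC was -0.71, beside 0.01 over all genes, and the macrophage markers moved in the same comparison as given above.

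Thyroid hormone entry, deiodination and receptors (13 genes) gave no call in the deletion comparison, 3 higher and 2 lower in heterozygous cTEC, 2 and 6 in heterozygous mTEC, and 8 and 3 in homozygous mTEC against cTEC. Dio1, the activating deiodinase of liver and kidney, was lower in heterozygous cTEC (-3.64, adjusted p = 3.87e-08) and mTEC (-0.93, adjusted p = 1.59e-05), and Thra, a thyroid hormone receptor, was higher in both (0.47, adjusted p = 4.08e-05 and 0.86, adjusted p = 4.07e-06). Dio3, the inactivating deiodinase, was higher in heterozygous cTEC (2.51, adjusted p = 0.000145).

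Of 15 transcription factors and scaffolds of transporter expression in liver and kidney, none of 9 tested passed in the deletion comparison. In heterozygous cTEC 3 were higher and 2 lower, in heterozygous mTEC 2 and 10, and in homozygous mTEC against cTEC 11 and 3. Hnf4a, a regulator of hepatic transporters, had 36 counts in homozygous cTEC and none in heterozygous cTEC (adjusted p = 4.09e-05), and was lower in heterozygous mTEC (-2.77, adjusted p = 5.56e-06). Hnf4g was higher in heterozygous cTEC (0.79, adjusted p = 0.00011) and lower in heterozygous mTEC (-2.03, adjusted p = 6.67e-08). None of these values says which factor acts on which carrier.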

How the data were processed

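Whole-number read counts per gene for 38720 genes and 20 libraries were used as deposited by the authors. The submitters' processing notes name TopHat2 2.0.10, featureCounts, Trimmomatic 0.32, SAMtools and other tools, and the mouse build mm10 (GRCm38). Neither the annotation nor the strand setting nor the tool behind these counts is stated in the sources at hand.

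The main test was the two-sided quasi-likelihood test of edgeR 4.0.16 (R 4.3.3) with TMM factors. Genes passed filterByExpr with a count of at least 10 and a total of at least 15, and p-values were adjusted by Benjamini-Hochberg over all genes tested, with calls at 0.05. The deletion set and the transgenic set were fitted apart, each on its 10 libraries, and no test crosses them. Fold changes use TMM scaling and CPM the raw totals, so a fold change can differ from the ratio of CPM values. Levels are not compared between genes, since no transcript lengths were used. Where a group had 1 to 3 counts, a ratio of depth-scaled sums with an exact 95% binomial interval replaces the fitted value, and against 0 counts the fold is a lower bound at 3 counts over the group. These cover counting error only.

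DESeq2 1.42.0, limma-voom (limma 3.58.1), no normalization factors, no filter, a block by library number, fits of only the groups compared and leaving out each library were the alternatives. The edgeR step was tested on simulated data. No pair of libraries of a group agreed within counting noise (chi-square per gene from 3.65 to 121). The members, companion lists and marker lists were chosen with earlier results of these data known. A member was described in full if it passed in at least 1 of 6 comparisons and reached a mean of 1 CPM in a group, and from a companion list up to 2 genes per direction of smallest adjusted p could be named. Gene positions and promoters are from RefSeq tables of GRCm38.p6, matched by symbol for all 40 members and for 35. Some genes of the lists are counted in the totals but not reported here by name.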

Additional observations from a re-analysis of the deposited data

Results flagged for a closer look

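In 3 groups of 5 libraries a single library stood apart from the other 4 by Dixon's ratio, among 40 groups of this size examined, and chance alone gives about 1 in 20. Slc22a14 read 0.319 CPM in deleted cTEC library 2, a total of 7 counts where the others had 2 or 3. Slc22a2 read 0.179 CPM in control cTEC library 5, from 4 counts. Slco2a1 read 283 CPM in deleted cTEC library 2, below the other 4 libraries of its group at 323 to 337 CPM.

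For 10 of the members with a group mean of at least 1 CPM, the effect of the transgene dose differed between mTEC and cTEC in a test of the difference itself (log2 dose effect in mTEC minus that in cTEC, edgeR adjusted p under 0.05). It was above 0 for Slc22a7 (4.07), Slco4c1 (2.32), Slc22a4 (2.28), Slc22a17 (0.70) and Slc22a23 (0.39). It was below 0 for Slco1a5 (-4.65), Slc22a14 (-3.70), Slc22a21 (-0.88), Slco2a1 (-0.50) and Slc22a5 (-0.36). For Slc22a17 both effects were rises, the larger one in mTEC, and for Slc22a7 both were falls, the larger one in cTEC. Slc22a21 and Slco1a5 are the 2 that passed in both compartments in opposite directions. The rise of Slc22a21 in cTEC was lost in 10 of 16 alternatives (DESeq2 adjusted p = 0.111), and that of Slco1a5 in 0 of 16. An 11th member, Slc22a22, also passed (-3.59, adjusted p = 0.0454), with a mean under 1 CPM in every group. Slc22a14 and Slc22a22 passed the filter through homozygous mTEC alone, which favours values below 0. The value for Slc22a14 rests on 2 counts in heterozygous mTEC, that for Slc22a7 on 6 there and 9 in heterozygous cTEC.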

How the results depend on the processing

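Of 70 calls of named members, 57 held under every alternative run and 13 were lost under at least 1, and none of 1749 alternative values turned a called direction. In the deletion comparison the lower calls went from 1 to 2 with DESeq2, to 0 with limma-voom and to 2 with the library number as a replicate block, and the higher calls from 0 to 1 with DESeq2. For the dose in cTEC the lower calls went from 8 to 5 without normalization factors, without the filter or with only the 2 groups compared, and the higher calls from 4 to 2 with DESeq2, without the filter or with only the 2 groups compared. The higher calls for the dose in mTEC went from 1 to 2 with the block or with only the 2 groups compared. For the interaction the calls below 0 went from 6 to 10 with limma-voom and those above 0 from 5 to 3 without the filter. The cause of these changes was not tested.

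Leaving out each library gave, for higher and lower calls, 0 to 0 and 1 to 2 in the deletion comparison, 2 to 3 and 5 to 8 for the dose in cTEC, 1 to 2 and 15 to 17 for the dose in mTEC, 19 to 21 and 5 to 6 between homozygous and 13 to 16 and 3 to 4 between heterozygous compartments, and 4 to 6 and 4 to 7 for the interaction. Where such a fit leaves 1 mTEC library in a group, its spread is taken from the other groups. Over all genes, these fits called 27 to 732 lower by deletion, beside 257 with all libraries.

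Nothing in the labels says what a shared library number means. Residuals of same-numbered control and deleted libraries correlated at 0.629, 0.757, 0.0953, 0.400 and 0.482. In 4 of the 5 pairs the same number was the best match, a hint of pairing from the data, but library 3 fell short of 0.1 and matched deleted library 5 best, so the numbers were not treated as pairs. Between the dose groups these correlations were 0.130, 0.124 and 0.0588 in cTEC and 0.197 in mTEC. In the block fit Slco2b1 passed as lower (-1.07, adjusted p = 0.0398). Without normalization factors the share of lower calls among all genes called went from 51.1% to 32.5% for the dose in cTEC, from 47.7% to 37.5% between homozygous compartments, where the median moved from 0.04 to 0.28, and from 40.6% to 57% for the interaction. With DESeq2 it went from 51.6% to 62.8% for the dose in mTEC. Counts of 10 or fewer in a group limit what can be told of the members seen mainly in mTEC.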
